A study of Mus musculus with 42 samples.

Results

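The core genes of the circadian clock were measured in the liver of 42 mice by mRNA sequencing. The set holds 10 genes, chosen by symbol: the activators Arntl and Npas2, the repressors Per1, Per2, Per3, Cry1 and Cry2, the nuclear receptors Nr1d1 and Nr1d2, and the output factor Dbp. They are 10 of the 54446 genes in the count table, and 9 of them had enough counts to be tested. Per3 was listed at 0 counts in all 42 mice. This gene (chromosome 4, 151003652 to 151044665, minus strand, build GRCm38) lies within the bounds of Camta1 on the same strand and shares 0 exon bases with it. How the counting treated reads inside another gene is not given in the sources used here, so Per3 is only listed and has no fold change.

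All mice were female and carried the human APOE*3-Leiden transgene, which slows the clearance of lipoproteins by the liver, and the chow-fed reference mice carried it too. The Chow group held 10 mice on chow, labelled with a period of 32 weeks. Their age is not given in the sources used here. The WTD group held 16 mice fed a Western-type diet with 15% cocoa butter, 40.5% sucrose and 1% cholesterol by weight, started at 8 to 14 weeks of age and given for a run-in of 3 weeks and then 32 weeks. Sodium cholate, a bile salt, was added to this diet at 0.05% from week 22. The WTD+atorvastatin group held 16 mice on the same regimen with atorvastatin, an inhibitor of cholesterol synthesis. It was mixed into the food after the run-in, at 3.0 mg/kg/day and, from week 5, at 4.5 mg/kg/day. Weeks are counted from the end of the run-in. The mice were group-housed with 12 h of light a day, and neither the hour at which each mouse died nor its cage is given in the sources used here. Whole liver was sequenced, so fewer cells of a type and less RNA per cell cannot be told apart.

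The clock is a feedback loop of transcription. ARNTL (also called BMAL1) pairs with CLOCK or its relative NPAS2 and switches on genes through E-boxes, among them Per, Cry, Nr1d1, Nr1d2 and Dbp. PER and CRY proteins then block that activity, while the NR1D1 and NR1D2 receptors (REV-ERB alpha and beta) bind ROR elements and repress Arntl, Npas2 and Cry1. DBP carries the rhythm to metabolic genes through D-boxes. In mouse liver the transcripts of Arntl, Npas2 and Cry1 are therefore high at hours of the day when those of Nr1d1 and Dbp are low, and the levels at a single moment depend on the hour.

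Sequences are shown for the members on which the results turn: Per1 and Cry1, which passed the threshold in WTD against Chow though not in every fit, and Arntl, against which the others were set. For Per1 (chr11:69098699-69098948, plus strand) and Cry1 (chr10:85185055-85185304, minus strand) these are the 250 bases before a RefSeq transcript start in build GRCm38.p6, and for Arntl (chr7:113207529-113207558, plus strand) 30 bases just after a start. Capitals mark the E-box CACGTG in Per1 and Cry1 and the ROR element core TAGGTCA in Arntl.
Per1: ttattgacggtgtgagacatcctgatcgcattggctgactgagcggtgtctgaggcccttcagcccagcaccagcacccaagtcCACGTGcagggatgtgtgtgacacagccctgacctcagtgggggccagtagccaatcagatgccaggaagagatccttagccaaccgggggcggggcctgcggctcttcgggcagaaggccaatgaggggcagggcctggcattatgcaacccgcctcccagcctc
Cry1: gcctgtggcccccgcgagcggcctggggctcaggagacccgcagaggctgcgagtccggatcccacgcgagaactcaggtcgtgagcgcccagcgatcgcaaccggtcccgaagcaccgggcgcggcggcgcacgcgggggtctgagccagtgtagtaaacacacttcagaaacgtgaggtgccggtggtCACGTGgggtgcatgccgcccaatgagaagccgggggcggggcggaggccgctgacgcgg
Arntl: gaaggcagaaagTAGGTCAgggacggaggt

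Counted from the transcript start, the E-box began at base -166 in Per1 and at base -60 in Cry1, and the ROR core began at base 30 in Arntl. Of the 32851 promoter windows in the RefSeq table, searched on both strands, 7.15% held the E-box, 2.61% the ROR core and 0.938% the D-box TTATGTAA. The only D-boxes among the members' windows were 2 in Per3, at bases -205 and -158. The other windows of Per1 and Arntl, and the windows of Npas2, Cry2, Nr1d1, Nr1d2 and Dbp, held none of these motifs. Per2 had no window in the table. A match to these letters is a description and does not show binding. In the GENCODE annotation of GRCm38 the tested members are protein-coding genes. Arntl lies on chromosome 7 from 113207465 to 113314126 (plus strand), and Npas2 lies on chromosome 1 from 39193731 to 39363236 (plus strand). Per1 lies on chromosome 11 from 69095217 to 69109960 (plus strand), and Per2 lies on chromosome 1 from 91415982 to 91459324 (minus strand). Cry1 lies on chromosome 10 from 85131700 to 85185064 (minus strand), and Cry2 lies on chromosome 2 from 92403646 to 92434043 (minus strand). Nr1d1 lies on chromosome 11 from 98767932 to 98775333 (minus strand), and Nr1d2 lies on chromosome 14 from 18204054 to 18239127 (minus strand). Dbp lies on chromosome 7 from 45705088 to 45710203 (plus strand).

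Levels are given as CPM, a count divided by the TMM-scaled library size so that libraries of different depth can be compared. The libraries held 15661381 to 36224054 counts in genes. In 8 libraries over 20% of the weakly expressed genes of their group had no count: 3 from Chow, 4 from WTD and 1 from WTD+atorvastatin. These are called low-capture libraries below. The 9 hepatocyte markers found in the table were expressed in every group, with a summed level of 113936 to 166720 CPM in Chow, 53780 to 108694 in WTD and 63206 to 130806 in WTD+atorvastatin. The 10 macrophage markers summed to 283 to 441 CPM in Chow, 1396 to 2887 in WTD and 1092 to 2079 in WTD+atorvastatin, with Itgam at 0 in all mice. The part of these marker levels in the clock gene differences was not tested.

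Within each diet group Dbp and Arntl differed widely between mice, and the other members did so to differing degrees. Dbp spanned 0 to 81.5 CPM in Chow (median 3.25), 3.14 to 182 CPM in WTD (median 20.3) and 8.42 to 203 CPM in WTD+atorvastatin (median 58.6). The chow-fed mouse at 0, AZ#2, had a low-capture library. The standard deviation (SD) of Dbp on the log2 CPM scale was 3.09 in Chow (n = 10), 2.00 in WTD (n = 16) and 1.59 in WTD+atorvastatin (n = 16). It was larger than that of 99.96%, 99.18% and 99.28% of the 15574 tested genes, respectively. The chow value rests in part on AZ#2, whose log2 level is set by the prior count, and was 2.44 without it (n = 9). Not every member stood out in this way. The SD of Per2 exceeded that of 42.0% of the tested genes in Chow and 52.8% in WTD+atorvastatin, and that of Cry2 39.0% in WTD. Among the 9106 genes averaging at least 10 CPM these shares were 68.8%, 83.3% and 65.9%. For Arntl the share of all tested genes was 67.8% in Chow, 78.5% in WTD and 88.1% in WTD+atorvastatin. Arntl spanned 8.69 to 69.2 CPM in Chow (median 54.6), 2.5 to 47.6 CPM in WTD (median 29.3) and 4.68 to 53.6 CPM in WTD+atorvastatin (median 21). Arntl levels were not spread evenly. In Chow they fell into 4 mice at 8.69 to 24.6 CPM and 6 mice at 53.5 to 69.2 CPM, and in WTD into 6 mice at 2.5 to 13.4 CPM and 10 mice at 26.9 to 47.6 CPM, whereas WTD+atorvastatin showed no gap of this size with at least 3 mice on each side. Within the lower WTD-fed mice a wider gap set Gen#10 and Gen#11, at 2.5 and 2.87 CPM, apart from the other 4, at 9.28 CPM or more. Low-capture libraries were 1 of the 4 lower and 2 of the 6 higher mice in Chow, and 3 of the 6 lower and 1 of the 10 higher mice in WTD.

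**Figure D1:**
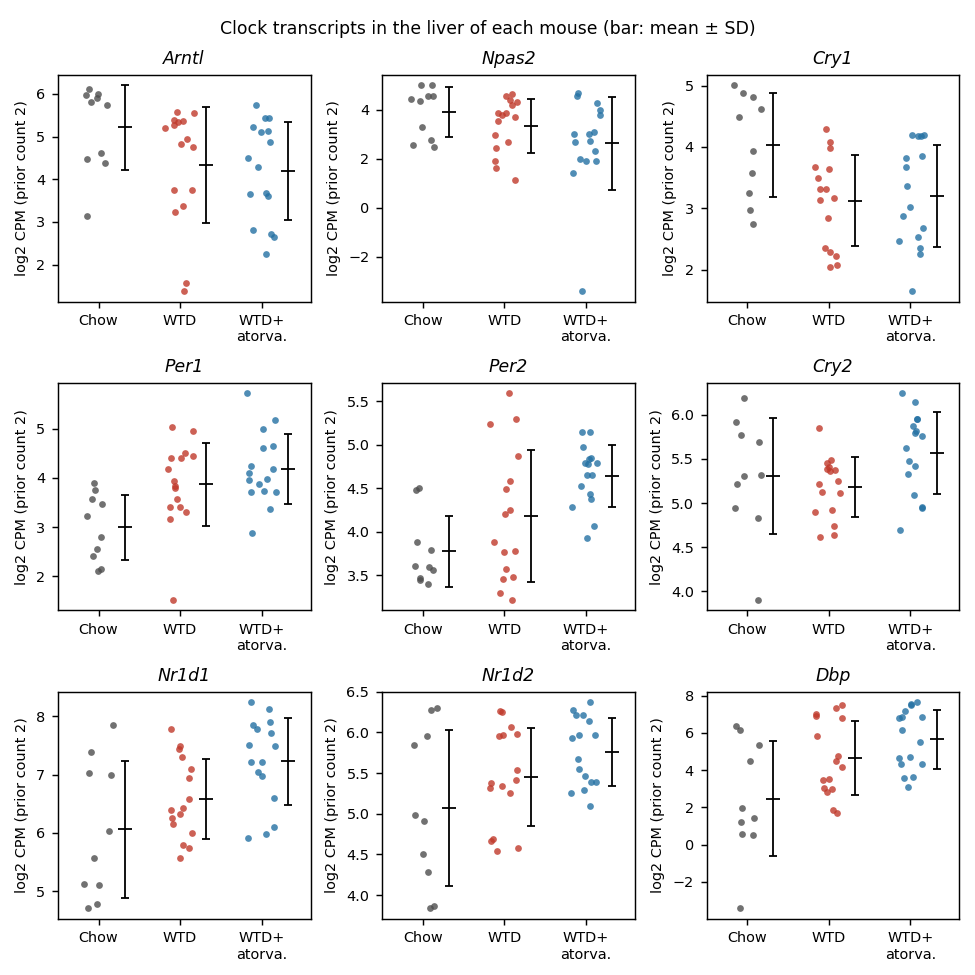
Level of the 9 tested clock transcripts in each mouse, as log2 CPM with a prior count of 2, in Chow (n = 10), WTD (n = 16) and WTD+atorvastatin (n = 16); the bar beside the points is the mean with 1 SD. The groups overlap for all 9 genes, Dbp runs over the widest range in Chow and WTD, Npas2 does so in WTD+atorvastatin through 1 mouse at 0 counts, and Arntl leaves a gap in Chow and in WTD.

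The mice with low and with high Arntl came in runs of neighbouring mouse numbers, a pattern noticed in the data. In Chow, mice 1 to 3 and 6 to 8 had Arntl at 53.5 to 69.2 CPM, and mice 4, 5, 9 and 10 at 8.69 to 24.6 CPM. In WTD, mice 1 to 8 and 13 to 17 had 26.9 to 47.6 CPM, and mice 9 to 11 and 19 to 21 had 2.5 to 13.4 CPM. In WTD+atorvastatin, split at the median, mice 22 to 25 and 30 to 33 had 22.6 to 53.6 CPM, and mice 26 to 29 and 34 to 37 had 4.68 to 19.3 CPM. Each group thus held 4 runs. Dbp followed the same runs in the opposite direction. Where Arntl was high, Dbp reached at most 3.84 CPM in Chow, 26.8 CPM in WTD and 45.3 CPM in WTD+atorvastatin. Where Arntl was low, Dbp was at least 22 CPM in Chow, 57.8 CPM in WTD and 71.9 CPM in WTD+atorvastatin, so the runs did not overlap for Dbp in any group. Nr1d1 was also separated between the runs in Chow, at 26 to 65.4 CPM against 127 to 231 CPM, and in WTD, at 47.7 to 95.5 CPM against 123 to 220 CPM, but overlapped in WTD+atorvastatin, at 60.4 to 180 CPM against 148 to 303 CPM. What the mouse numbers stand for is not given in the sources used here, and no test was made, since the sides were drawn from the values.

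**Figure D2:**
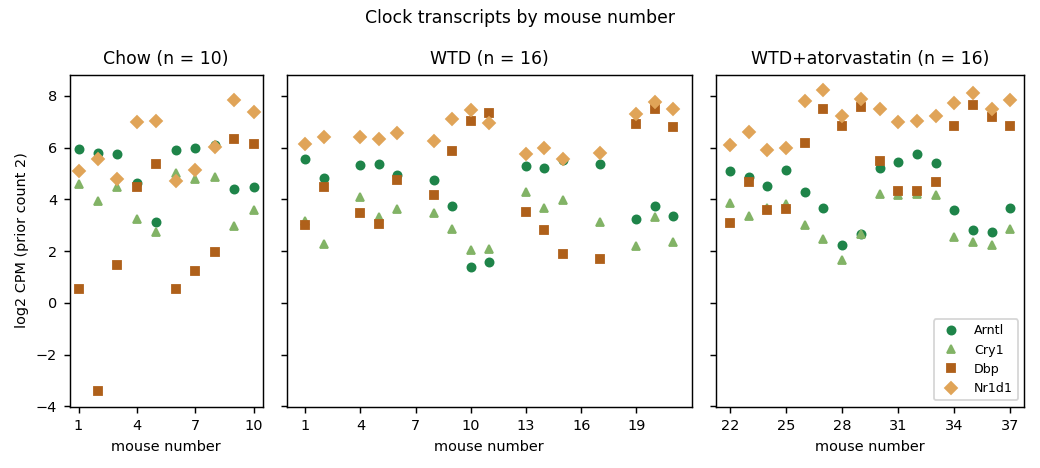
Log2 CPM (prior count 2) of Arntl, Cry1, Dbp and Nr1d1 in each mouse against the mouse number in the labels, for Chow (n = 10), WTD (n = 16) and WTD+atorvastatin (n = 16). Runs of neighbouring numbers with Arntl high and Dbp low alternate with runs of the opposite kind, 4 runs in each group; Cry1 follows Arntl but overlaps between the runs in WTD.

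The log2 ratio of Arntl to Dbp within a mouse, which does not depend on the scaling between libraries, also ran over a wide range. It went from -2.23 to 5.48 in the 9 chow-fed mice with Dbp counts, with a median of 4.24 over all 10, from -5.81 to 3.72 in WTD with a median of 0.45, and from -4.94 to 2.02 in WTD+atorvastatin with a median of -1.09. Arntl had fewer counts than Dbp in 3 of 10, 6 of 16 and 9 of 16 mice, respectively. The ratio is of counts without regard to exon length, which is 7523 bases for Arntl and 2993 for Dbp. Its sign therefore favours Arntl and does not compare transcript numbers. No ratio is given for AZ#2, which had no Dbp count and stands above the others in the median. The groups overlapped, and the ratio is given without a test.

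The other activator, Npas2, spanned 5.51 to 32.3 CPM in Chow (median 21.1), 2.07 to 25.2 CPM in WTD (median 13.2) and 0 to 25.8 CPM in WTD+atorvastatin (median 7.22). The treated mouse at 0, Gen#29, had a low-capture library, and the SD of Npas2 in that group was 1.90 with it and 1.04 without it. Among the repressors, Cry1 spanned 6.57 to 32.2 CPM in Chow (median 18.8), 4.04 to 19.5 CPM in WTD (median 9.37) and 3.03 to 18.3 CPM in WTD+atorvastatin (median 9.14). Cry1 was below the chow median in 15 of 16 WTD-fed mice and in 16 of 16 treated mice. Per1 spanned 4.23 to 14.7 CPM in Chow (median 8.05), 2.77 to 32.9 CPM in WTD (median 14.7) and 7.29 to 52.5 CPM in WTD+atorvastatin (median 16.3). Per1 was above the chow median in 15 of 16 mice of each diet-fed group. Per2 spanned 10.5 to 22.6 CPM in Chow (median 12), 9.21 to 48.1 CPM in WTD (median 16.5) and 15.1 to 35.4 CPM in WTD+atorvastatin (median 26.3). All 16 treated mice exceeded the chow median of Per2, against 11 of 16 WTD-fed mice.

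Cry2 spanned 14.9 to 72.7 CPM in Chow (median 39.6), 24.5 to 57.5 CPM in WTD (median 37.6) and 25.8 to 75.6 CPM in WTD+atorvastatin (median 51.6). Nr1d1 spanned 26 to 231 CPM in Chow (median 56.4), 47.7 to 220 CPM in WTD (median 85.2) and 60.4 to 303 CPM in WTD+atorvastatin (median 165). Nr1d2 spanned 14.2 to 78.8 CPM in Chow (median 30.8), 23.2 to 76.9 CPM in WTD (median 42) and 34 to 82.9 CPM in WTD+atorvastatin (median 55.8). For Nr1d1, Nr1d2 and Dbp all 16 treated mice lay above the chow median, although the groups still overlapped. Nr1d1 shares 263 exon bases with Thra, Dbp 539 with Sphk2, Cry2 295 with D930015M05Rik and Arntl 33 with Gm45355, each on the opposite strand. The library kit kept the strand, but the strand setting of the counting is not given in the sources used here, so reads in these stretches are uncertain.

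Per length of exon, Nr1d1 had the highest mean level of the 9 members in all groups, at 29.0 ± 23.1 CPM per kb in Chow (SD, n = 10), 34.6 ± 17.0 in WTD (SD, n = 16) and 54.6 ± 24.6 in WTD+atorvastatin (SD, n = 16). Dbp had the next highest mean in each group, followed by Nr1d2 and Cry2. It stood at 7.59 ± 10.4 CPM per kb in Chow (SD, n = 10), 18.4 ± 21.1 in WTD and 27.2 ± 23.4 in WTD+atorvastatin (SD, n = 16). In Chow the mean of Dbp was carried by the mice with low Arntl and lay close to that of Nr1d2, 7.54 ± 4.73 (SD, n = 10). The lowest mean was that of Npas2 in both diet-fed groups and that of Per1 in Chow, at 1.53 ± 0.69 CPM per kb (SD, n = 10). Neighbours in this order had overlapping mean ± SD intervals, with 1 exception, Cry2 at 7.82 ± 2.34 and Per2 at 4.36 ± 1.02 CPM per kb in WTD+atorvastatin (SD, n = 16).

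The first comparison asked whether the Western-type diet went with other clock transcript levels. All chow-fed mice carry AZ labels and all diet-fed mice Gen labels. Only the diet-fed groups were matched for age, body weight and plasma lipids. Diet and label series therefore cannot be told apart in either comparison with Chow. Per1 was higher and Cry1 lower in WTD than in Chow, by close to the same factor, and the other 7 tested members did not pass. Per1 rose 1.93-fold (95% interval 1.27 to 2.92), a log2 fold change of 0.95 (SE 0.30, adjusted p = 0.0087, edgeR quasi-likelihood test with Benjamini-Hochberg adjustment over 15574 genes, threshold 0.01). Cry1 was 1.93-fold lower, a log2 fold change of -0.95 (SE 0.30, adjusted p = 0.0080). Both groups overlapped for each gene. The fit treats the mice of a group as independent in all 3 comparisons. Its SEs, intervals and p-values therefore do not allow for the runs of neighbouring mouse numbers described above. The 2 of 9 members that passed are to be read against 33.5% of all tested genes, 17.5% higher and 16% lower, and a count this small does not set the members apart from that share. The median log2 fold change was 0.21 over the members and 0.03 over all tested genes.

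Per2 had a log2 fold change of 0.56 (SE 0.22, adjusted p = 0.039), above the threshold used here. Dbp had the largest estimate, 1.26, with an SE of 0.78 (adjusted p = 0.19), and its interval of the fold, 0.81 to 7.13, covered both no difference and a large one. The estimates were -0.71 for Arntl (SE 0.42, adjusted p = 0.17) and -0.52 for Npas2 (SE 0.46, adjusted p = 0.38). Those of Nr1d1, Nr1d2 and Cry2 lay between -0.21 and 0.25. For these 7 genes a difference was not detectable over the spread between mice, which does not show that the levels were alike.

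The calls of Per1 and Cry1 stood close to the threshold. Without the 8 low-capture libraries neither passed (Per1 0.99, adjusted p = 0.015; Cry1 -0.89, adjusted p = 0.026), and with Arntl as a covariate, an alternative chosen after seeing the data, the estimates shrank to 0.49 (adjusted p = 0.13) and -0.37 (adjusted p = 0.083). Arntl is itself a clock member measured in the same libraries, with an estimate below Chow in both diet-fed groups. Adding it to the fit can by construction remove part of a group difference, and what the shrinkage reflects was not tested. Leaving out 1 mouse at a time, Per1 passed in 29 of 42 fits and Cry1 in 28 of 42, with adjusted p up to 0.020 and 0.024. Per1 lost its call without AZ#1, AZ#4, AZ#5, AZ#7, AZ#8, AZ#9, Gen#2, Gen#8, Gen#10, Gen#11, Gen#19, Gen#20 or Gen#21, and Cry1 without AZ#1, AZ#3, AZ#6, AZ#7, AZ#8, Gen#1, Gen#2, Gen#5, Gen#9, Gen#10, Gen#11, Gen#17, Gen#19 or Gen#21.

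The second comparison asked whether atorvastatin changed the clock transcripts of WTD-fed mice. None of the 9 members passed by edgeR or by DESeq2, against 7.1% of all tested genes, made up of 4.84% higher and 2.26% lower. The split of all called genes depended on the scaling, with 68.2% of them higher by TMM, 54.9% by RLE and 50.9% by DESeq2. At an unadjusted p under 0.05, 2 members were found: Cry2 with a log2 fold change of 0.41 (SE 0.16, adjusted p = 0.074) and Nr1d1 with 0.65 (SE 0.29, adjusted p = 0.15). The estimates of Dbp, Per1, Per2 and Nr1d2 were 0.56, 0.29, 0.29 and 0.26, and those of Arntl and Npas2 were -0.18 and -0.39, with adjusted p of 0.37 to 0.85 in the same edgeR test. The interval of the fold for Cry1, 0.75 to 1.58, left room for a difference either way. With limma-voom and sample quality weights, 3 members passed: Per2 (0.63, adjusted p = 0.00087), Cry2 (0.50, adjusted p = 0.0024) and Nr1d1 (0.85, adjusted p = 0.0054). That tool also called more genes in all, 3145 against 1106.

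The third comparison, of treated mice with Chow, shares its chow-fed mice with the first and its treated mice with the second. Per1 rose 2.36-fold (95% interval 1.55 to 3.6), a log2 fold change of 1.24 (SE 0.30, adjusted p = 0.0011). Per2 rose 1.80-fold (1.32 to 2.47), a log2 fold change of 0.85 (SE 0.23, adjusted p = 0.0025, edgeR quasi-likelihood test). These 2 of 9 members are to be read against 25% of all tested genes, 14.2% higher and 10.7% lower. Both passed in all 42 fits that left out 1 mouse, and without the low-capture libraries. With Arntl as a covariate they no longer did, at 0.70 (adjusted p = 0.038) for Per1 and 0.63 (adjusted p = 0.016) for Per2. The limit given above for this covariate holds here too. Side by side with the WTD estimates, Cry1 stood at -0.82 (adjusted p = 0.027) here and -0.95 there, Nr1d1 at 0.91 (adjusted p = 0.036) and 0.25, Dbp at 1.82 (adjusted p = 0.072) and 1.26, Arntl at -0.89 (adjusted p = 0.099) and -0.71, Npas2 at -0.91 (adjusted p = 0.12) and -0.52, and Nr1d2 at 0.46 (adjusted p = 0.17) and 0.21. Nr1d1 passed (1.19, adjusted p = 0.0060) when the chow-fed mouse AZ#9, the highest of its group for this gene, was left out.

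**Figure D3:**
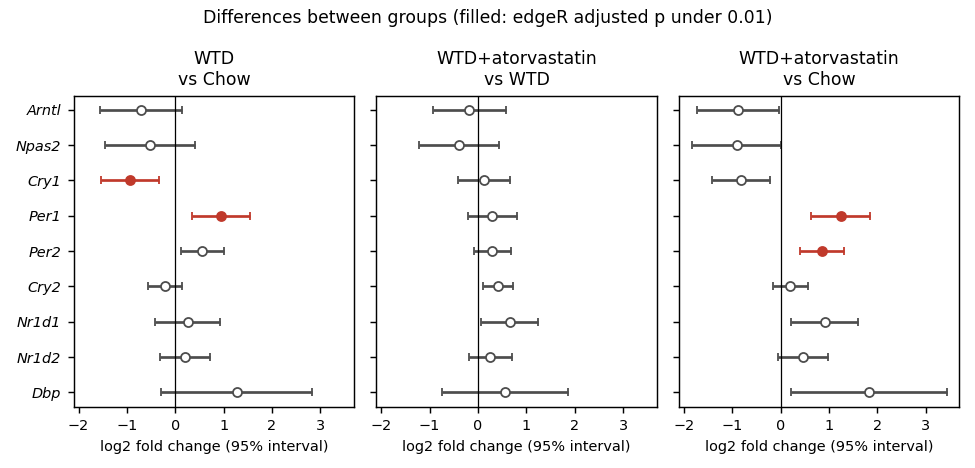
Log2 fold change with its 95% interval for the 9 tested members in the 3 comparisons (edgeR quasi-likelihood fit over 42 mice); filled symbols passed an adjusted p of 0.01. Per1 and Cry1 passed for WTD against Chow, Per1 and Per2 for WTD+atorvastatin against Chow, and none for WTD+atorvastatin against WTD, and the interval of Dbp is the widest in each panel.

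Whether mice of 1 group varied more than those of another was tested for each member by permutation (100000 permutations, two-sided, adjusted over 27 ratios). None passed at 0.05, and 6 had an unadjusted p under 0.05. The smallest were the log2 SD ratio of Nr1d2 in WTD+atorvastatin over Chow, -1.19 (SD 0.42 against 0.96, p = 0.0046, adjusted p = 0.12, permutation test), and that of Per2 in WTD+atorvastatin over WTD, -1.10 (SD 0.35 against 0.76, p = 0.0087, adjusted p = 0.12, permutation test). These permutations treat the mice as exchangeable and do not allow for the runs of neighbouring mouse numbers either.

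The relation of Arntl to the other members from mouse to mouse was tested within groups. Because Arntl left a gap in Chow and WTD, its relation to the other 8 members was computed within each side of the gap that held at least 6 mice and over all 16 treated mice, 32 relations in all, of which 6 passed at an adjusted p of 0.05. The cut narrowed the range of Arntl and the number of mice in Chow and WTD, but not in the treated group. The relations that passed therefore cannot be compared between groups. In the treated mice Arntl rose with Cry1 (Pearson r = 0.96, adjusted p = 0.00032; Spearman rho = 0.95, adjusted p = 0.00016; two-sided permutation tests) and with Npas2 (r = 0.75, adjusted p = 0.00053; rho = 0.93, adjusted p = 0.00016). It fell with rising Dbp (r = -0.84, adjusted p = 0.00083; rho = -0.78, adjusted p = 0.0045), Per1 (r = -0.83, adjusted p = 0.00032; rho = -0.84, adjusted p = 0.0014) and Nr1d2 (r = -0.83, adjusted p = 0.00083; rho = -0.79, adjusted p = 0.0042). The raw p for Cry1, 1e-05, is the smallest these permutations can give. These relations pool the 4 runs of neighbouring mouse numbers, and the permutations treat the 16 mice as exchangeable, so the p-values do not allow for the runs, which with 4 mice each were too small for a relation of their own. Without the 2 mice farthest from the median of Arntl, the r of these 5 relations was 0.96, 0.89, -0.84, -0.83 and -0.81.

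In the 16 treated mice Nr1d1 had r = -0.55 with Arntl (rho = -0.55, adjusted permutation p = 0.11), Cry2 -0.41 (rho = -0.33, adjusted p = 0.31) and Per2 -0.09 (rho = -0.08, adjusted p = 0.86), and these did not pass. In the 10 WTD-fed mice with higher Arntl, Dbp passed with r = -0.79 (permutation p = 0.0071, adjusted p = 0.038), and its rho of -0.76 had an adjusted p of 0.076. Without the 2 farthest mice this r was -0.72. These 10 mice pool 2 runs of mouse numbers, with Dbp at 7.96 to 26.8 CPM and at 3.14 to 11.3 CPM. The permutations do not allow for these runs. In the 6 chow-fed mice with higher Arntl and the 6 WTD-fed mice with lower Arntl none of the 16 relations passed (exact permutation test). Their r ran from -0.89 for Npas2 in these chow-fed mice (adjusted p = 0.083) to 0.76 for Cry1 in these WTD-fed mice (adjusted p = 0.23). The r of Npas2 thus had the opposite sign to that in the treated mice. As a description with no test, r in the treated mice was 0.93 between Dbp and Nr1d2, 0.90 between Dbp and Nr1d1, 0.93 between Cry2 and Nr1d1 and -0.82 between Dbp and Cry1, all within the same 16 libraries.

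**Figure D4:**
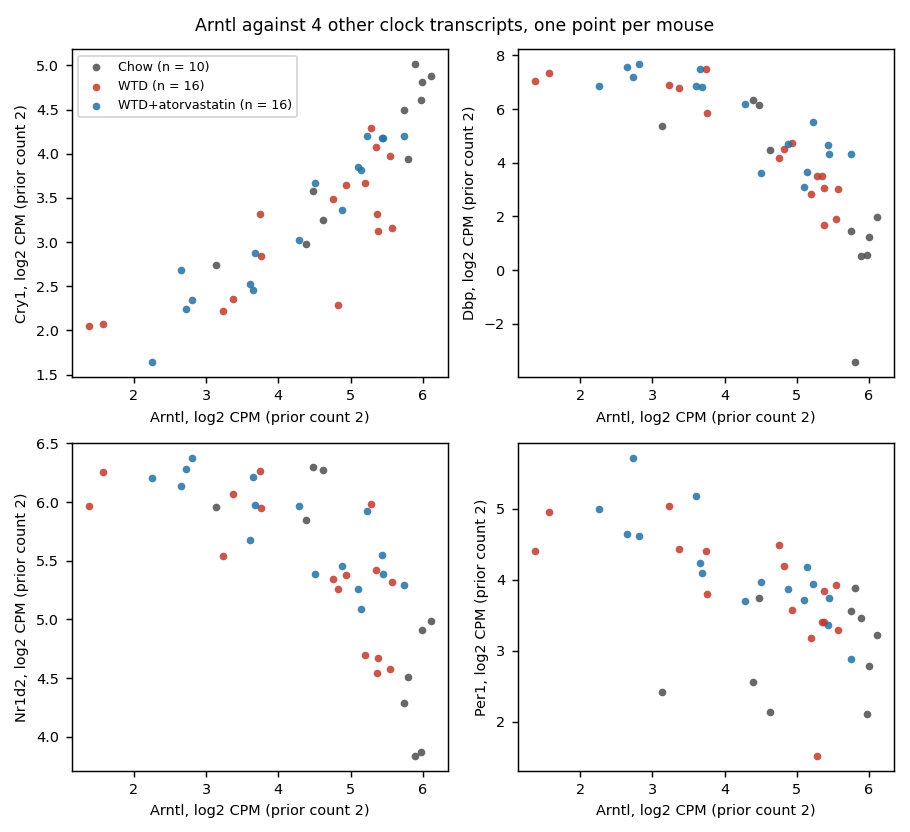
Log2 CPM (prior count 2) of Cry1, Dbp, Nr1d2 and Per1 against that of Arntl, 1 point for each of the 42 mice, coloured by group. Cry1 rises with Arntl, Dbp and Nr1d2 fall, and in the Per1 panel 3 of the 4 chow-fed mice with low Arntl lie below the diet-fed mice of similar Arntl level.

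The other transcription factors of the clock form a list of 10, of which 9 were tested (Rorb had too few counts). In WTD against Chow, 2 were higher and 3 lower, beside 33.5% of all tested genes called, with a median log2 fold change of -0.24 beside 0.03 over all genes. Nfil3, a D-box repressor, was lower (-1.54, SE 0.22, adjusted p = 1.5e-07), as was Clock, the partner of ARNTL (-0.66, SE 0.12, adjusted p = 1.6e-05). The E-box repressors Bhlhe40 (1.17, SE 0.18, adjusted p = 4.1e-07) and Bhlhe41 (2.87, SE 0.62, adjusted p = 0.00013) were higher. Bhlhe41 was near the floor, at a mean of 0.58 CPM in Chow and 4.26 CPM in WTD. Clock spanned 35.5 to 47.3 CPM in Chow (median 39.5) and 11.6 to 36.8 CPM in WTD (median 26.7), so that the groups overlapped between 35.5 and 36.8 CPM. These 4 genes also passed without the low-capture libraries, and with Arntl as a covariate Tef and Hlf passed as well. In WTD+atorvastatin against WTD none passed, and the smallest p belonged to Hlf (0.45, adjusted p = 0.079), Rora (-0.16, adjusted p = 0.17) and Tef (0.58, adjusted p = 0.20); 3 of the 9 had an unadjusted p under 0.05. Against Chow, where 25% of all tested genes were called, the treated mice had 5 called genes of the 9: Nfil3 at -1.44, Bhlhe40 at 1.14, Rora at -0.40, Clock at -0.55 and Bhlhe41 at 2.31.

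**Figure D5:**
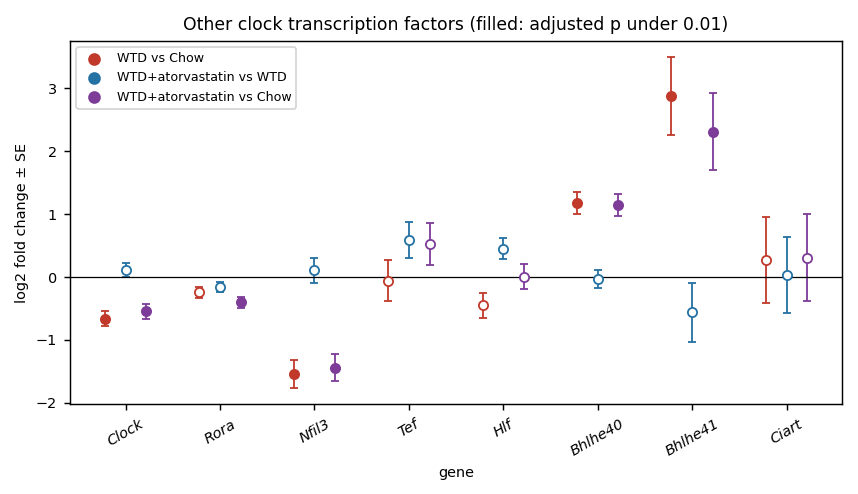
Log2 fold change with 1 SE for 8 of the 9 tested transcription factors of the clock outside the set, in the 3 comparisons; filled symbols passed an adjusted p of 0.01. Nfil3 and Clock lie below 0 and Bhlhe40 and Bhlhe41 above 0 in both comparisons with Chow, which share their chow-fed mice.

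The lists that follow are to be read beside the 33.5% of all tested genes called in WTD against Chow, 7.1% in WTD+atorvastatin against WTD and 25% in WTD+atorvastatin against Chow, and none was tested against that share. Of 12 kinases, ubiquitin ligases and partners of the PER and CRY proteins, 4 were higher and 2 lower in WTD than in Chow, 0 passed in WTD+atorvastatin against WTD (2 at an unadjusted p under 0.05), and 4 were higher and 1 lower in the treated mice than in Chow. The genes with the smallest p in WTD were Ddb1 (0.45), the ligase subunit Fbxw11 (0.73) and the kinase gene Csnk1e (0.82), whose product marks PER for breakdown. In the treated mice against WTD they were Btrc (0.30, adjusted p = 0.060), Cipc (0.21) and Ddb1 (0.10), and against Chow Ddb1 (0.55), Fbxw11 (0.65) and Csnk1e (0.69). Of 12 liver genes known to follow the clock, 1 was higher and 4 lower in WTD, led by Cyp7a1, the rate-limiting enzyme of bile acid synthesis (-1.46), the cell cycle kinase gene Wee1 (1.86) and Elovl3 (-3.58). Elovl3 was near the floor, at a mean of 4.87 CPM in Chow, 0.40 in WTD and 1.59 in WTD+atorvastatin. With atorvastatin Lpin1 rose by 0.70 (SE 0.15, adjusted p = 0.0013) over WTD. Gys2 (0.43, adjusted p = 0.042) and Elovl3 (1.97, adjusted p = 0.048) did not pass. Against Chow the treated mice had 3 called genes of this list, Wee1 (1.55), Nampt (0.31) and Cyp7a1 (-0.82). Without the low-capture libraries the last 2 counts were 0 and 1.

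Transcripts that answer to signals able to set the liver clock were counted as well, beside the same shares of all tested genes (33.5%, 7.1% and 25%). Of 10 glucocorticoid-responsive genes, a list that holds Per1 itself, 4 (Per1 among them) were higher and 3 lower in WTD than in Chow, led by Lcn2 (3.95), Tat (-1.19) and Sgk1 (0.83). With atorvastatin 1 was higher and 2 lower than in WTD, Tat (0.75), Lcn2 (-1.27) and Gadd45b (-0.72), and only Tat of these passed without the low-capture libraries. Against Chow 3 were higher and 2 lower in the treated mice, led by Lcn2 (2.67), Sgk1 (0.80) and Mt1 (-1.31). Of 10 temperature-responsive genes, 2 were higher and 1 lower in WTD: Rbm3 (0.87), Hspd1 (-0.37) and Hspa1a (2.24). With atorvastatin Rbm3 alone passed against WTD (-0.39), ahead of Hspb1 (-0.63, adjusted p = 0.015) and Hspa1b (-0.82, adjusted p = 0.062), and against Chow 1 was higher and 5 lower, led by Hspb1 (-0.95), Hspa1b (-1.40) and Rbm3 (0.48). Without the low-capture libraries 1 was higher and 3 lower in the treated mice than in Chow, and Hspa1b no longer passed. Hspa1a and Hspa1b are near-identical copies whose reads the counting could split. Hspa1a was near the floor, at a mean of 0.40 CPM in Chow and 1.92 CPM in WTD. Of 10 fasting and feeding genes, 1 was higher and 4 lower in WTD, among them Angptl4 (-1.53). In WTD+atorvastatin none passed against WTD (4 at an unadjusted p under 0.05, among them Pck1 at 0.40), and against Chow 1 was higher and 2 lower, among them Angptl4 (-1.55).

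Marker genes of hepatocytes and of other liver cells differed between the groups, and diet and label series cannot be told apart for them either. In WTD against Chow, 9 of 9 tested hepatocyte markers were lower, and 8 of 9 macrophage, 7 of 10 stellate cell and fibroblast, and 6 of 6 cholangiocyte markers were higher, while 2 of 8 endothelial markers were higher and 2 lower and 0 of 8 lymphocyte markers passed. In WTD+atorvastatin against WTD, 6 hepatocyte markers were higher and 5 macrophage, 4 stellate cell and 1 cholangiocyte markers lower, with 1 macrophage and 2 endothelial markers higher. Without the low-capture libraries 5 hepatocyte markers were higher in this comparison, and 4 macrophage and 3 stellate cell markers lower. Then 0 macrophage markers were higher, 0 cholangiocyte markers passed, and 1 endothelial marker was higher and 1 lower. Against Chow the treated mice had 5 hepatocyte markers lower, 9 macrophage, 8 stellate cell and 5 cholangiocyte markers higher, and 3 endothelial markers higher and 1 lower. Their part in the differences of Per1, Per2 and Cry1 was not tested.

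Genes whose levels followed those of Arntl or Dbp from mouse to mouse were ranked by Pearson r of log2 CPM after subtraction of the group means, over 42 mice and 13635 genes, as a description with no p, and pooled over the mice on both sides of the gap in Arntl. The genes most like Arntl were Clpx (r = 0.89), which encodes a subunit of a mitochondrial protease, Tubb2a (0.86), Abtb2 (0.84), Leo1 (0.83) and Ypel2 (0.82), and the lowest r belonged to Gpr146 (-0.84), Fbxo21 (-0.84), Tns2 (-0.82), Tef (-0.82) and Bhlhe40 (-0.78). Those most like Dbp were Tef (0.88), which encodes a factor of the same family as DBP, Tns2 (0.86), Klhdc7a (0.84), Fbxo21 (0.83) and Tbc1d10a (0.81), and the lowest r belonged to Nedd4l (-0.81), Clpx (-0.80), Pnrc1 (-0.80) and Chka (-0.80). Tef, Tns2, Fbxo21 and Clpx stood on both lists, with opposite signs for Arntl and Dbp.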

How the data were processed

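Liver mRNA of 42 mice was sequenced with a strand-keeping, poly(A)-selecting kit (paired ends). The authors trimmed reads with Trimmomatic, aligned them with STAR 2.5 to GRCm38 and deposited HTSeq 0.6.1p1 counts per gene, not normalized. The counts were used as deposited, and gene symbols, exon lengths and overlaps came from the GENCODE annotation of GRCm38. Groups came from the labels. Genes were filtered with filterByExpr (minimum count 10), scaled by TMM and fitted in 1 edgeR 4.0.16 robust quasi-likelihood model over all mice (R 4.3.3), with calls at a Benjamini-Hochberg adjusted p under 0.01. SE is the log2 fold change over the root of F. The procedure was checked on simulated data. CPM on the log2 scale had a prior count of 2. Relations and SD ratios used 100000 permutations, or all of them with 6 mice. The mice were separate animals. The 10 members, the other gene lists and the tests were chosen with earlier results of these data known.

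All members are named. Of each other list the 3 genes with the smallest p per comparison are named, and the text adds further called clock factors. Of genes like Arntl and like Dbp, the 5 highest and 5 lowest are named. Some genes that these rules take are not reported here. The plan was to relate Arntl to the others within each whole group, as 27 relations. Since Arntl left a gap of at least 1 on the log2 scale, with at least 3 mice on each side, in Chow and WTD, they were computed on each side instead, as 32 relations with the 8 tested members, and this change followed a look at the values. A low-capture library lacked any count for over 20% of the genes averaging 1 to 2 CPM in its group. Alternatives were DESeq2 1.42.0, limma-voom with quality weights (limma 3.58.1), RLE and upper-quartile scaling, omitting the filter, a stricter filter (10 counts or more in each mouse), a fit that was not robust, leaving out the 20 most abundant genes, only the groups compared, leaving out the low-capture libraries, an adjusted p under 0.05, a prior count of 0.5, Spearman's rho, leaving out each mouse and, chosen after seeing the data, Arntl as a covariate and the SD without mice at 0 counts.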

Additional observations from a re-analysis of the deposited data

How the results depend on the processing

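For WTD against Chow the number of members called was 2 and became 1 with limma-voom, RLE scaling or the stricter filter (which drops Npas2 and Dbp), 0 without a filter, without the low-capture libraries or with Arntl as a covariate, and 0 to 2 when single mice were left out; it stayed at 2 with DESeq2, upper-quartile scaling, no robust estimation, without the 20 most abundant genes and with only the groups compared, and was 3 at an adjusted p under 0.05. For WTD+atorvastatin against WTD it was 0 in each of these except limma-voom, which gave 3. For WTD+atorvastatin against Chow it was 2 and became 5 with limma-voom, 4 at an adjusted p under 0.05, 0 with Arntl as a covariate and 2 to 3 with single mice left out. Estimates that changed sign were those of Cry1 with limma-voom in WTD+atorvastatin against WTD (-0.057), of Nr1d1 (-0.0083) and Nr1d2 (-0.13) without the low-capture libraries in WTD against Chow, and of Npas2 (0.18), Nr1d1 (-0.0633) and Nr1d2 (-0.0494) with Arntl as a covariate in that comparison; none of these estimates passed in either fit. The median of the members in WTD against Chow was -0.13 without the low-capture libraries. The cause of these changes was not tested. The number of relations called was 5 with Spearman's rho and 6 in the other settings, and that of SD ratios was 0 throughout. No paired analysis was possible because every mouse was a separate animal and the numbers of chow-fed and diet-fed mice belong to separate series. Over all genes, limma-voom called 3145 in WTD+atorvastatin against WTD, where edgeR called 1106 at an adjusted p under 0.01 and 2021 under 0.05. The hour of death is not given in the sources used here, and its part in the differences was not tested.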
